A study of Mus musculus with 6 samples.

Results

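The 10 genes described here are Mib1, whose intron holds the microRNA gene miR-1-2, and 9 further genes of Notch signalling: the ligase gene Mib2, the ligand genes Dll1, Dll4, Jag1 and Jag2, the receptor gene Notch1, and the target genes Hey1, Hey2 and Heyl. Members were all probe sets whose platform gene symbol is one of these 10, which gave 19 of the 45037 probe sets tested, or 10 of 18193 measured genes. A probe set is a group of short probes that reports one transcript, and its deposited value is on a log2 scale made with RMA, so that differences between groups below are log2 differences, knockout minus wild type. None of the 10 genes was chosen by its values in these arrays, although the choice was made with earlier results of the series known.

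Notch receptors are activated by ligands on a neighbouring cell. Mind bomb ligases, encoded by Mib1 and Mib2, ubiquitinate the ligand so that it is pulled into the sending cell, which exposes the receptor to proteases. The freed intracellular part of Notch joins the DNA-binding protein Rbpj in the nucleus and switches on Hes and Hey genes, which encode transcriptional repressors. In the heart this signalling is known from endocardium, valves, coronary vessels and trabeculae, and Hey2 is known from the compact ventricular wall. Dll1 is a reported target of miR-1, which is abundant in heart and skeletal muscle cells.

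The series measured heart tissue of 3 miR-1-2 knockout mice and 3 wild-type mice, all at postnatal day 10, with 1 array for each mouse. The sources used here do not give strain, litter, sex or how the deletion was made, nor whether any Mib1 probe lies within deleted sequence. No value of the microRNA was analysed here, so the genotype labels remain unchecked. Cardiomyocyte markers were high in every heart, with means of 7 genes between 13.68 and 13.75 in knockout and between 13.66 and 13.73 in wild type. The 12 endothelial markers were present in all of them, with means between 9.08 and 9.29 in knockout and between 9.05 and 9.26 in wild type, and 10 of the 12 had a higher mean in knockout. Xist, which is made from the silenced X of female cells, was low in knockout replicates 1 and 3 (7.55 and 7.57) and between 11.91 and 12.19 elsewhere, so sex was not balanced between the groups. Since heart tissue was measured in bulk, fewer cells of a type and less RNA per cell cannot be told apart. With 3 arrays in a group, their number sets how precise a difference can be.

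No member changed by the test. In the limma comparison of knockout with wild type, 0 of the 19 probe sets passed an adjusted p of 0.05, against 3 of all 45037 (0.00666%), and 0 had an unadjusted p under 0.05. The members' adjusted p-values were all 1.00, and all 19 of the 95% intervals of the difference covered 0. With the replicate number as a block, 0 members passed against 20 of all probe sets (0.0444%). In that fit 2 members, a Mib1 probe set and Hey2, had an unadjusted p under 0.05, which is 10.5% of members against 6.49% of all probe sets. The mean was higher in knockout for 6 member probe sets and lower for 13, while 47.1% of all probe sets were higher. Their median difference was -0.02, against -0.01 over all probe sets. With the brightest probe set of each gene, 4 member genes were higher and 6 lower, while 50.2% of all genes were higher. Groups did not overlap for 2 members, a Mib1 probe set that was lower in knockout and the Mib2 probe set that was higher, against 8.7% of all probe sets.

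**Figure D1:**
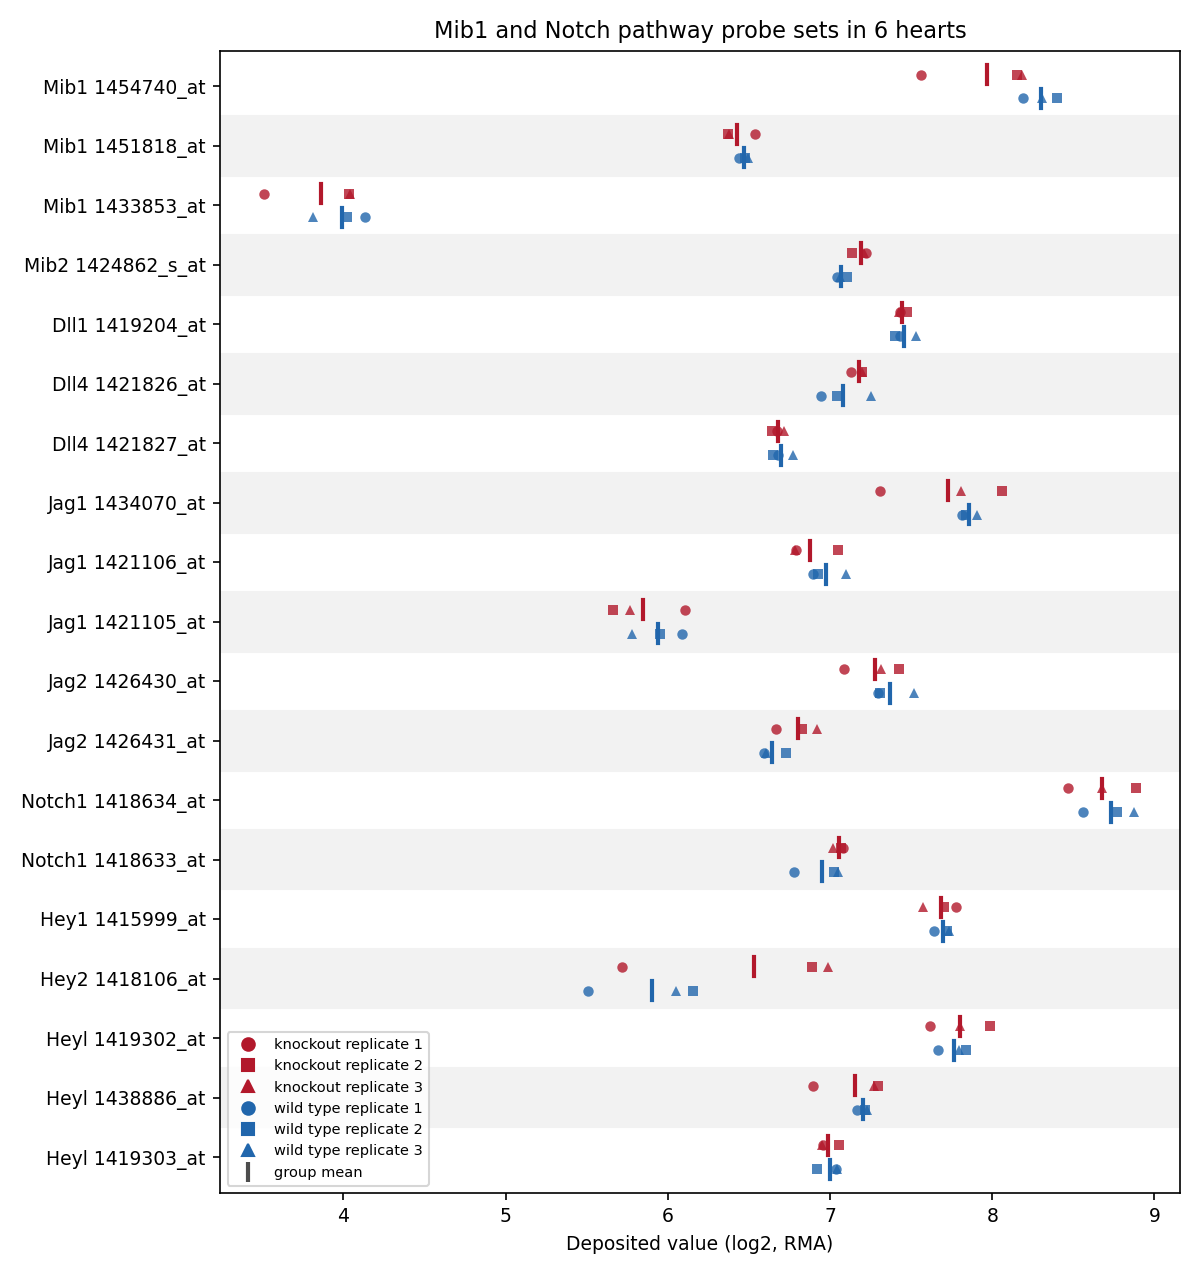
Deposited log2 value (horizontal axis) of each of the 19 probe sets (rows) in 3 knockout hearts (red, upper points of a row) and 3 wild-type hearts (blue, lower points), with marker shape giving the replicate number and a vertical bar the group mean. Most rows overlap, and Hey2 has the widest spread, with knockout between 5.72 and 6.99 and wild type between 5.51 and 6.16.

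Mib1 is read by 3 probe sets, and all of them had a lower mean in knockout. The brightest, 1454740_at, was at 7.56, 8.15 and 8.19 in knockout replicates 1 to 3, against 8.19, 8.40 and 8.31 in wild type. Knockout replicate 1 stands well below the other 5 hearts, while the other knockout hearts lie just under the lowest wild-type heart. The means were 7.97 ± 0.35 in knockout and 8.30 ± 0.11 in wild type (SD, n = 3 each), a difference of -0.33 ± 0.16 (SE; limma, unadjusted p = 0.0601, adjusted p = 1.00; 95% interval -0.69 to 0.02). Leaving out knockout replicate 1 reduced the difference to -0.13.

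The dimmer probe set 1433853_at, designed from the same sequence record as the brightest, was at 3.51, 4.04 and 4.04 in knockout against 4.13, 4.02 and 3.81 in wild type. Knockout replicate 1 was again the lowest of the 6 hearts, and the other hearts overlapped freely. It lies low on the array's scale, with 11.1% of probe sets at or under it on average, where RMA compresses differences, and its difference was -0.13 ± 0.15. The probe set 1451818_at comes from another sequence record and behaved otherwise. Its values were 6.54, 6.37 and 6.38 in knockout against 6.44, 6.47 and 6.49 in wild type, so that here knockout replicate 1 was the highest of all hearts. The difference was -0.04 ± 0.08 (SE; limma, 95% interval -0.21 to 0.13). The dip in knockout replicate 1 was thus seen with 2 of 3 probe sets of the host gene.

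Mib2 encodes the related ligase that also ubiquitinates Notch ligands. Its only probe set was at 7.22, 7.13 and 7.21 in knockout against 7.04, 7.11 and 7.06 in wild type. Every knockout heart was above every wild-type heart, by a margin of hundredths of a log2 unit at the closest pair. The difference was 0.12 ± 0.07 (SE; limma, adjusted p = 1.00; 95% interval -0.04 to 0.28), a ratio of 1.09. It was therefore also higher in knockout in 3 of 3 numbered pairs, as were 12.9% of all probe sets.

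The 4 ligand genes are read by 8 probe sets, of which 2 had a higher and 6 a lower mean in knockout, and all 8 overlapped between groups. Dll1, a Delta-type ligand and the reported miR-1 target, was at 7.43, 7.47 and 7.42 in knockout against 7.43, 7.40 and 7.53 in wild type. The knockout hearts lie inside the wild-type range. The means were 7.44 ± 0.03 in knockout and 7.45 ± 0.07 in wild type (SD, n = 3 each), a difference of -0.01 ± 0.07 (SE; limma, adjusted p = 1.00). The 95% interval of -0.17 to 0.15 corresponds to knockout levels between 0.887 and 1.11 times wild type, so a rise of Dll1 messenger RNA above 1.11-fold lies outside it.

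Dll4, the Delta-type ligand of arterial and sprouting endothelium, has a pair of probe sets that gave opposite signs. With 1421826_at the values were 7.13, 7.20 and 7.20 in knockout against 6.94, 7.04 and 7.25 in wild type, a difference of 0.10 ± 0.09 (SE). With 1421827_at they were 6.68, 6.64 and 6.72 in knockout against 6.68, 6.65 and 6.77 in wild type, a difference of -0.02 ± 0.07 (SE). In each case wild-type replicate 3 was the highest heart and the groups overlapped.

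Jag1, a Jagged ligand known from arterial endothelium and smooth muscle, had a lower mean in knockout with all 3 of its probe sets. The brightest, 1434070_at, was at 7.31, 8.06 and 7.81 in knockout against 7.82, 7.84 and 7.91 in wild type. Its knockout hearts spread widely, with replicate 1 the lowest and replicate 2 the highest of all 6, while the wild-type hearts lay close together. The means were 7.73 ± 0.38 in knockout and 7.85 ± 0.05 in wild type, a difference of -0.13 ± 0.16 (SE; limma, 95% interval -0.49 to 0.24). Without knockout replicate 1 the difference was 0.08, so its sign rests on that heart. The other Jag1 probe sets differed by -0.10 ± 0.10 and -0.09 ± 0.13.

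Jag2, the other Jagged ligand, gave opposite signs with its pair of probe sets. The brighter, 1426430_at, was at 7.09, 7.42 and 7.31 in knockout against 7.29, 7.31 and 7.52 in wild type, a difference of -0.10 ± 0.10. The dimmer, 1426431_at, was at 6.66, 6.83 and 6.92 in knockout against 6.59, 6.73 and 6.60 in wild type, a difference of 0.16 ± 0.09 that was higher in 3 of 3 numbered pairs. Neither passed, and of the 6 member genes with several probe sets only Mib1 and Jag1 had 1 sign throughout.

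Notch1, the receptor of endocardium and coronary endothelium, was at 8.46, 8.89 and 8.67 in knockout against 8.56, 8.77 and 8.88 in wild type with its brighter probe set, 1418634_at. Replicate 1 was the lowest heart of each group. The difference was -0.06 ± 0.12 (SE; limma, adjusted p = 1.00; 95% interval -0.33 to 0.22). The other probe set, 1418633_at, was at 7.08, 7.07 and 7.02 in knockout against 6.78, 7.03 and 7.05 in wild type, a difference of 0.10 ± 0.09. Wild-type replicate 1 was the only heart below 7, and the other 5 hearts overlapped.

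Among the Hey genes, which encode basic helix-loop-helix repressors switched on by Notch, Hey2 differed most in mean and the others lay near 0. Hey2 is read by 1 probe set, which was at 5.72, 6.89 and 6.99 in knockout against 5.51, 6.16 and 6.05 in wild type. On average 52.6% of probe sets lay at or under it, and its wild-type mean is below the array medians of 6.03 to 6.11. In each group replicate 1 was low, and the other knockout hearts were above all wild-type hearts, whereas knockout replicate 1 fell between wild-type hearts. The means were 6.53 ± 0.71 in knockout and 5.90 ± 0.35 in wild type (SD, n = 3 each), a ratio of 1.55 with a 95% interval of 0.953 to 2.51. The difference of 0.63 ± 0.31 (SE) did not pass (limma, unadjusted p = 0.0721, adjusted p = 1.00).

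The numbered pairs of Hey2 differed by 0.21, 0.73 and 0.94, higher in knockout in 3 of 3, as were 12.9% of all probe sets. With the replicate number as a block the difference was 0.63 ± 0.12 (SE; limma, unadjusted p = 5.54e-04), and it did not pass over all probe sets (adjusted p = 0.264). With replicates 2 and 3 alone, an alternative chosen after seeing the data, it was 0.83 and did not pass either (adjusted p = 0.108). Leaving out single hearts moved it between 0.40, without knockout replicate 3, and 1.03, without knockout replicate 1. When each gene was represented by 1 probe set, Hey2 passed with the block and without replicate 1 (limma, adjusted p = 0.0239), where 11 of 18193 genes passed. That fit uses the same hearts as replicates 2 and 3 alone, so it is not a separate result. Hey2 also passed with array weights (limma, adjusted p = 0.0384), where 416 of 18193 genes passed. Over the alternatives its adjusted p lay between 0.0239 and 1.00. Replicate 1 of each group also had the highest mean of brown fat markers, at 10.06 in knockout and 9.66 in wild type. In the other hearts that mean was 8.10 and 7.76 in knockout and 7.68 and 7.63 in wild type. All 4 measured markers of that list had a higher mean in knockout, and none was at 0. Their part in the Hey2 values was not tested.

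The Hey2 promoter is shown because Hey2 is the target gene with the widest difference and Rbpj, the DNA-binding partner of Notch, is known to act through such promoters. The sequence runs from 250 bases before to 50 bases after the RefSeq start of Hey2 on GRCm38.p6, chr10:30842734-30843033, minus strand, and capitals mark the Rbpj core motif GTGGGAA or its complement TTCCCAC.
Hey2: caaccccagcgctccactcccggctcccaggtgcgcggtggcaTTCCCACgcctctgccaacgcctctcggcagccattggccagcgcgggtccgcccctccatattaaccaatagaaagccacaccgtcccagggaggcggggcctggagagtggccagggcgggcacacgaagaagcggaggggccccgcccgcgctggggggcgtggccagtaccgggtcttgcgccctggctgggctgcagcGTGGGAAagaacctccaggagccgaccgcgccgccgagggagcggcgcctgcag
The window holds the motif at 2 places that do not overlap, from base 44 to 50 on the opposite strand and from base 247 to 253 on the strand of the gene, counted from 1 at its 5′ end. Of 32851 promoters of the same length 6.38% hold it at least once on either strand, and 0.256% at least 2 times. RefSeq windows were searched for 7 of the members (Dll1, Dll4, Jag1, Jag2, Mib2, Notch1 and Hey2), 9 windows in all. The Hey2 window was the only one of these with the motif. The other target genes, Hey1 and Heyl, and Mib1 were not searched, so Hey2 was not set against another Hey gene. A match of letters is a description and not a measured binding site.

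Hey1, known from arterial endothelium and atrial myocardium, was at 7.78, 7.70 and 7.57 in knockout against 7.64, 7.72 and 7.74 in wild type. The wild-type hearts lie inside the knockout range, and the difference was -0.02 ± 0.08 (SE; limma, 95% interval -0.19 to 0.16). Heyl, known from vascular smooth muscle, is read by 3 probe sets, and the brightest, 1419302_at, was at 7.62, 7.99 and 7.80 in knockout against 7.67, 7.84 and 7.79 in wild type. Its difference was 0.03 ± 0.10, and those of the other Heyl probe sets were -0.05 ± 0.11 and -0.01 ± 0.08. Whether the Hey2 difference exceeds that of Hey1 or Heyl was not tested, because different probe sets are not on a common scale.

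**Figure D2:**
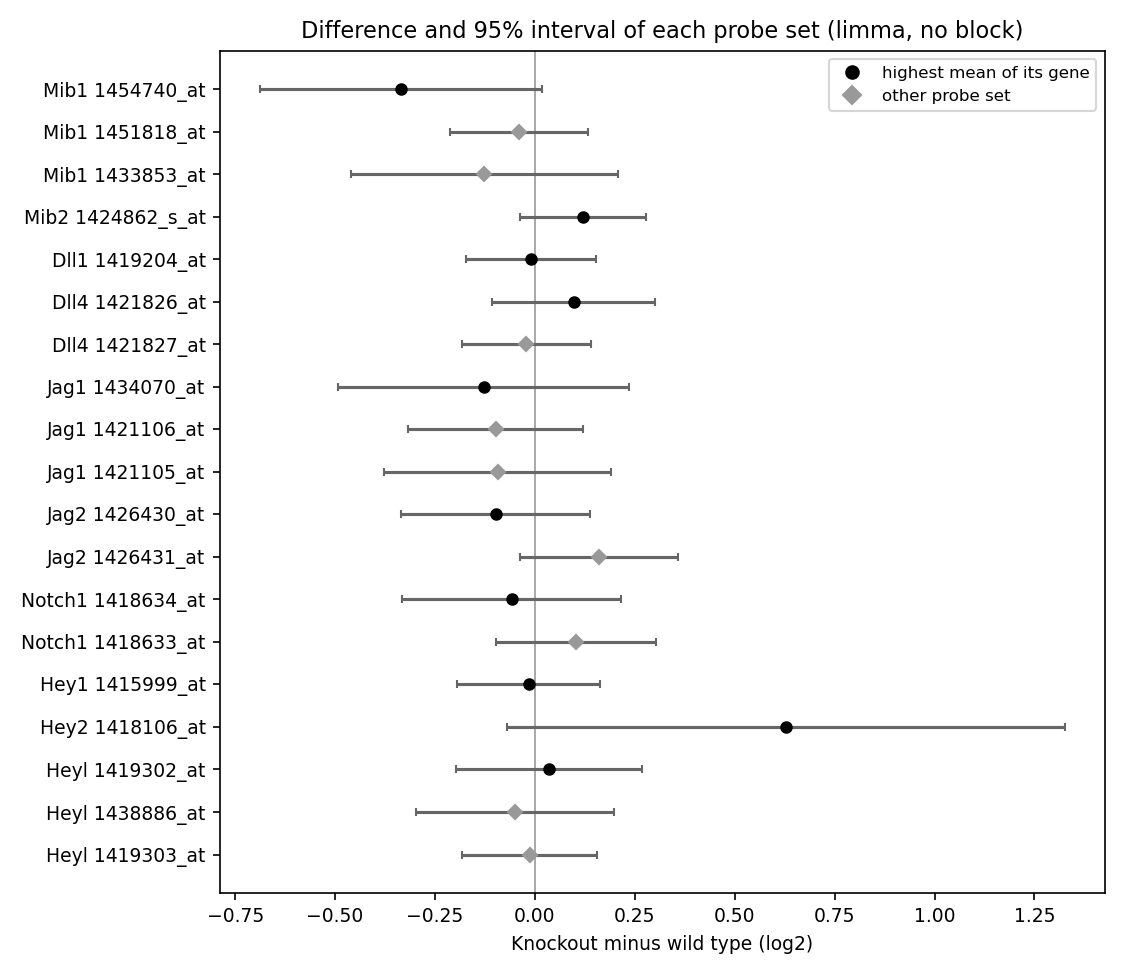
Knockout minus wild-type difference (log2, horizontal axis) with its 95% interval for each of the 19 probe sets, from limma without a block. Black circles mark the probe set with the highest mean of its gene and grey diamonds the others. Every interval covers 0, and the differences run from -0.33 for Mib1 to 0.63 for Hey2.

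Apart from Mib1 and Hey2, the 15 probe sets of the remaining 8 genes differed by between -0.13 and 0.16. Their 95% intervals together spanned ratios of 0.711 to 1.28 of knockout over wild type. Changes beyond that span lie outside every one of these intervals. Single intervals could be narrower, such as 0.887 to 1.11 for Dll1, so some smaller changes lie outside them too.

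The genes most like Mib1, Notch1 and Hey2 over the 6 hearts were found by the root mean square difference between log2 profiles, each centred on its own mean. For Mib1 they were Zfp367 (0.080), Esco2 (0.086), Spast (0.094), Cpox (0.10) and Maged2 (0.10), where the spread of Mib1 itself was 0.27. Esco2 encodes a cohesin acetyltransferase of S phase, Spast the microtubule-severing protein spastin, and Cpox an enzyme of haem synthesis. All 5 were lowest in knockout replicate 1, as Mib1 was, which follows from choosing them by likeness over the same 6 hearts. For Notch1 the nearest were Man1b1 (0.013), Gt(ROSA)26Sor (0.018), Postn (0.022), Pik3c3 (0.032) and Cmtm3 (0.032), against a spread of 0.16. Postn encodes the matrix protein periostin of fibroblasts.

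For Hey2 the nearest were Abhd3 (0.10), Adamts6 (0.13), Cited1 (0.13), Zfp397 (0.17) and Fbn2 (0.21), against a spread of 0.55. Abhd3, a hydrolase gene, was at 5.73, 6.66 and 6.70 in knockout against 5.45, 5.98 and 5.89 in wild type. All 5 were higher in knockout in 3 of 3 numbered pairs and overlapped between groups, as Hey2 did. A shared direction follows from choosing them by likeness to Hey2 over the same 6 hearts. Their differences were 0.39 to 0.59, and none passed (limma, adjusted p = 1.00). Hey2 lies on chromosome 10, while 3 of the 5, Abhd3, Zfp397 and Fbn2, lie on chromosome 18 with Mib1. Pik3c3, named above for Notch1, also lies there, with 61 coding genes between it and Mib1. Of all measured genes with a position 2.55% lie on that chromosome. In the RefSeq gene order of GRCm38.p6, 0 coding genes stand between Mib1 and Abhd3, 46 between Mib1 and Zfp397, and 308 between Mib1 and Fbn2. Abhd3 thus is the immediate coding neighbour of the gene that holds miR-1-2. Whether position on that chromosome has a part in these patterns was not tested.

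**Figure D3:**
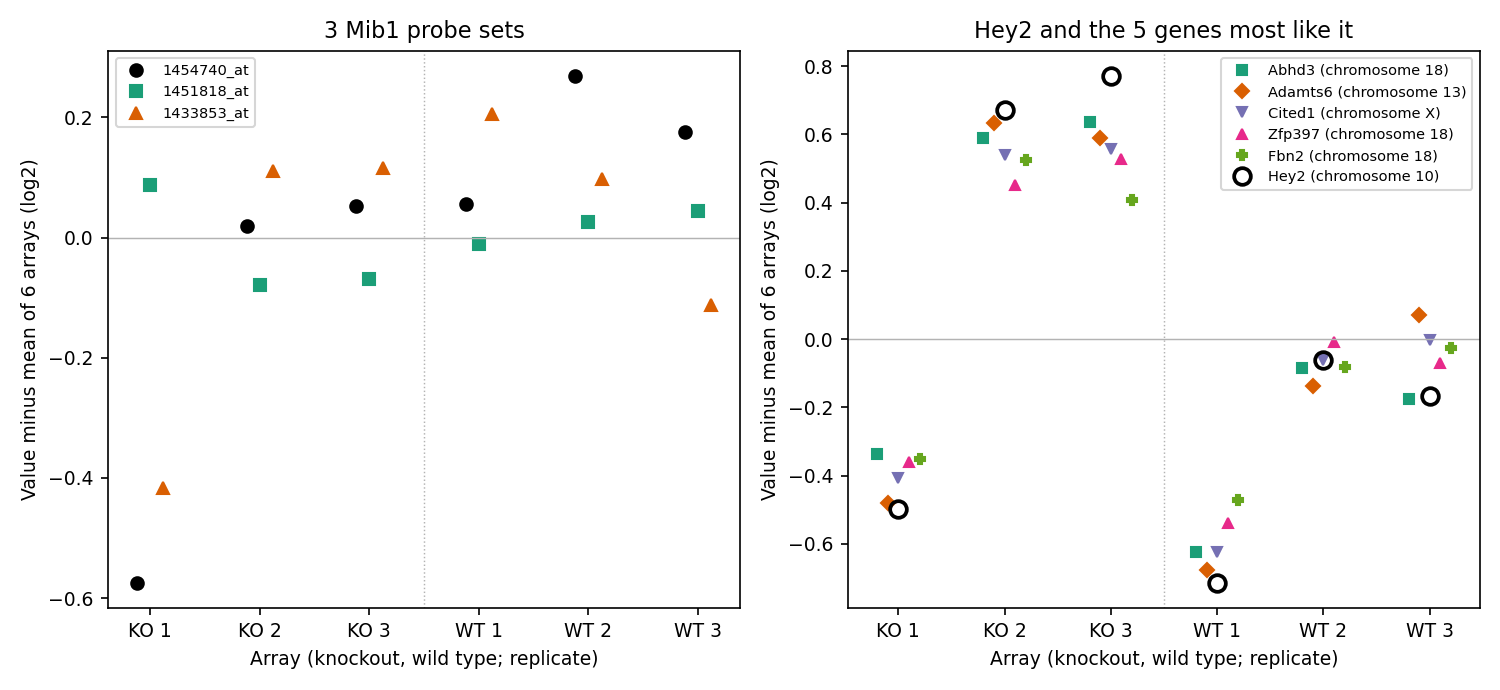
Log2 value minus the mean of the 6 hearts (vertical axis) in each knockout (KO) and wild-type (WT) heart, by replicate number. Left, the 3 Mib1 probe sets, of which 1454740_at and 1433853_at are lowest in knockout replicate 1 and 1451818_at is highest there. Right, Hey2 (open circles) and the 5 genes nearest to it, which are low in replicate 1 of each group and highest in knockout replicates 2 and 3.

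Of 49 other Notch pathway genes listed, 46 were measured and were represented by their brightest probe set. None passed (limma; 0 of 46, against 0 of 18193 genes, 0%), 3 had an unadjusted p under 0.05 (4.1% of all genes did), and 31 had a higher mean in knockout, against 50.2% of all genes. That count was 24 of 46 without wild-type replicate 1 (49.2% of all genes) and 25 of 46 with the mean over each gene's probe sets (47.4% of all genes). Among the upper 60% of genes by mean it was 28 of 39, against 56.8% of all genes kept. The median difference of the 46 was 0.04, against 0.00 over all genes. With the replicate number as a block 0 of them passed, against 0.0715% of all genes. In that fit 7 of the 46 (15.2%), 5 higher and 2 lower in knockout, had an unadjusted p under 0.05 (limma), against 7.29% of all genes. Groups did not overlap for 3 of the 46, Fbxw7, Dtx2 and Bmp10, against 8.86% of all genes.

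None of the other receptor genes passed. Notch2 differed by -0.05 ± 0.07 (SE) with its brightest probe set and by 0.08 with the other. Notch3, the receptor of vascular smooth muscle, differed by 0.05 ± 0.10 and by 0.11 with its other probe set. Notch4, an endothelial receptor, was at 7.68, 8.29 and 8.33 in knockout against 7.52, 7.99 and 8.16 in wild type. It was lowest in replicate 1 of each group, as were the means of the endothelial markers (9.08 in knockout and 9.05 in wild type), whose part was not tested. The difference was 0.21 ± 0.20, higher in 3 of 3 numbered pairs, as were 15.2% of all genes. The other Notch4 probe sets differed by 0.08 and -0.07. Among the other ligand genes, Dll3 differed by -0.07 ± 0.07 and Dlk2 by 0.04 ± 0.11, with its other probe set at -0.03.

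Of the enzymes that put sugars on Notch, 4 of 5 had a higher mean in knockout, and the differences largest in size were those of Poglut1 (0.10 ± 0.07) and Rfng (-0.11 ± 0.11, SE). The other Rfng probe set differed by 0.03. Of the 4 Neuralized genes, which encode a further family of ligand ligases, Neurl1b was at 6.77, 7.45 and 7.47 in knockout against 6.62, 7.19 and 7.23 in wild type. Replicate 1 was low in each group, and the difference was 0.22 ± 0.22. Neurl3 differed by -0.07 ± 0.10. Among 8 protease genes 5 had a higher mean, with Aph1a, a subunit of gamma-secretase, at 0.18 ± 0.15 and Adam10, which cuts the activated receptor, at -0.08 ± 0.12. The other Aph1a probe sets differed by 0.05 and 0.02. The other Adam10 probe sets differed by -0.20, lower in 3 of 3 numbered pairs, -0.09 and 0.06, and none passed.

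In the nucleus, Rbpj was at 8.09, 8.56 and 8.49 in knockout against 8.38, 8.37 and 8.34 in wild type, a difference of 0.02 ± 0.12 (SE). Its wild-type hearts were tightly grouped inside the knockout range, and its other probe sets differed by 0.0072 and 0.0083. Maml2, a coactivator of the Mastermind family, differed by 0.11 ± 0.12, and Snw1, a further cofactor, by 0.11 ± 0.07, with the other Snw1 probe sets at -0.22 and 0.09. Hes1, the widely used Notch target gene, was at 8.43, 8.43 and 8.56 in knockout against 8.52, 8.34 and 8.34 in wild type, and differed by 0.07 ± 0.08. Hes6 differed by 0.11 ± 0.11, and by 0.12 with its other probe set.

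Among 10 genes that limit or modify Notch signalling, Fbxw7 had the lowest difference and Dtx2 the highest. Fbxw7 encodes the F-box protein that marks the intracellular part of Notch, and also cyclin E and Myc, for degradation. Its brightest probe set was at 8.83, 8.89 and 8.74 in knockout against 9.03, 8.99 and 9.15 in wild type, a difference of -0.24 ± 0.08 (SE; limma, unadjusted p = 0.0131, adjusted p = 1.00). The other, 1424986_s_at, was at 8.17, 7.85 and 7.86 in knockout against 8.55, 8.74 and 8.44 in wild type. Every knockout heart was below every wild-type heart with each of them. The second difference, -0.62 ± 0.11, ranked 23 of 45037 by p and did not pass over all probe sets (limma, adjusted p = 0.727). Dtx2, a Deltex ligase, was at 6.65, 6.74 and 6.55 in knockout against 6.43, 6.45 and 6.42 in wild type, a difference of 0.21 ± 0.07 (adjusted p = 1.00), and its other probe set differed by 0.12.

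Bmp10, which encodes a growth factor of trabecular and atrial myocardium, was at 6.01, 6.15 and 5.80 in knockout against 6.19, 6.21 and 6.37 in wild type. All knockout hearts were below all wild-type hearts, and the difference was -0.27 ± 0.10 (SE; limma, unadjusted p = 0.0269, adjusted p = 1.00). All 4 atrial markers (Myl4, Myl7, Sln and Nppa) also had a lower mean in knockout. Their mean was 12.20, 12.61 and 10.88 in knockout replicates 1 to 3 against 12.80, 11.96 and 12.67 in wild type, lowest in knockout replicate 3, where Bmp10 was lowest too. None of the 4 was at 0, and their part in the Bmp10 difference was not tested. Tbx2, a T-box factor of the atrioventricular canal, was at 6.01, 6.30 and 6.37 in knockout against 5.76, 6.09 and 6.09 in wild type. The difference of 0.24 ± 0.12 was nearly the same in each numbered pair (0.24, 0.21 and 0.27), and it did not pass without the block or with it (adjusted p = 1.00 and 0.476).

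**Figure D4:**
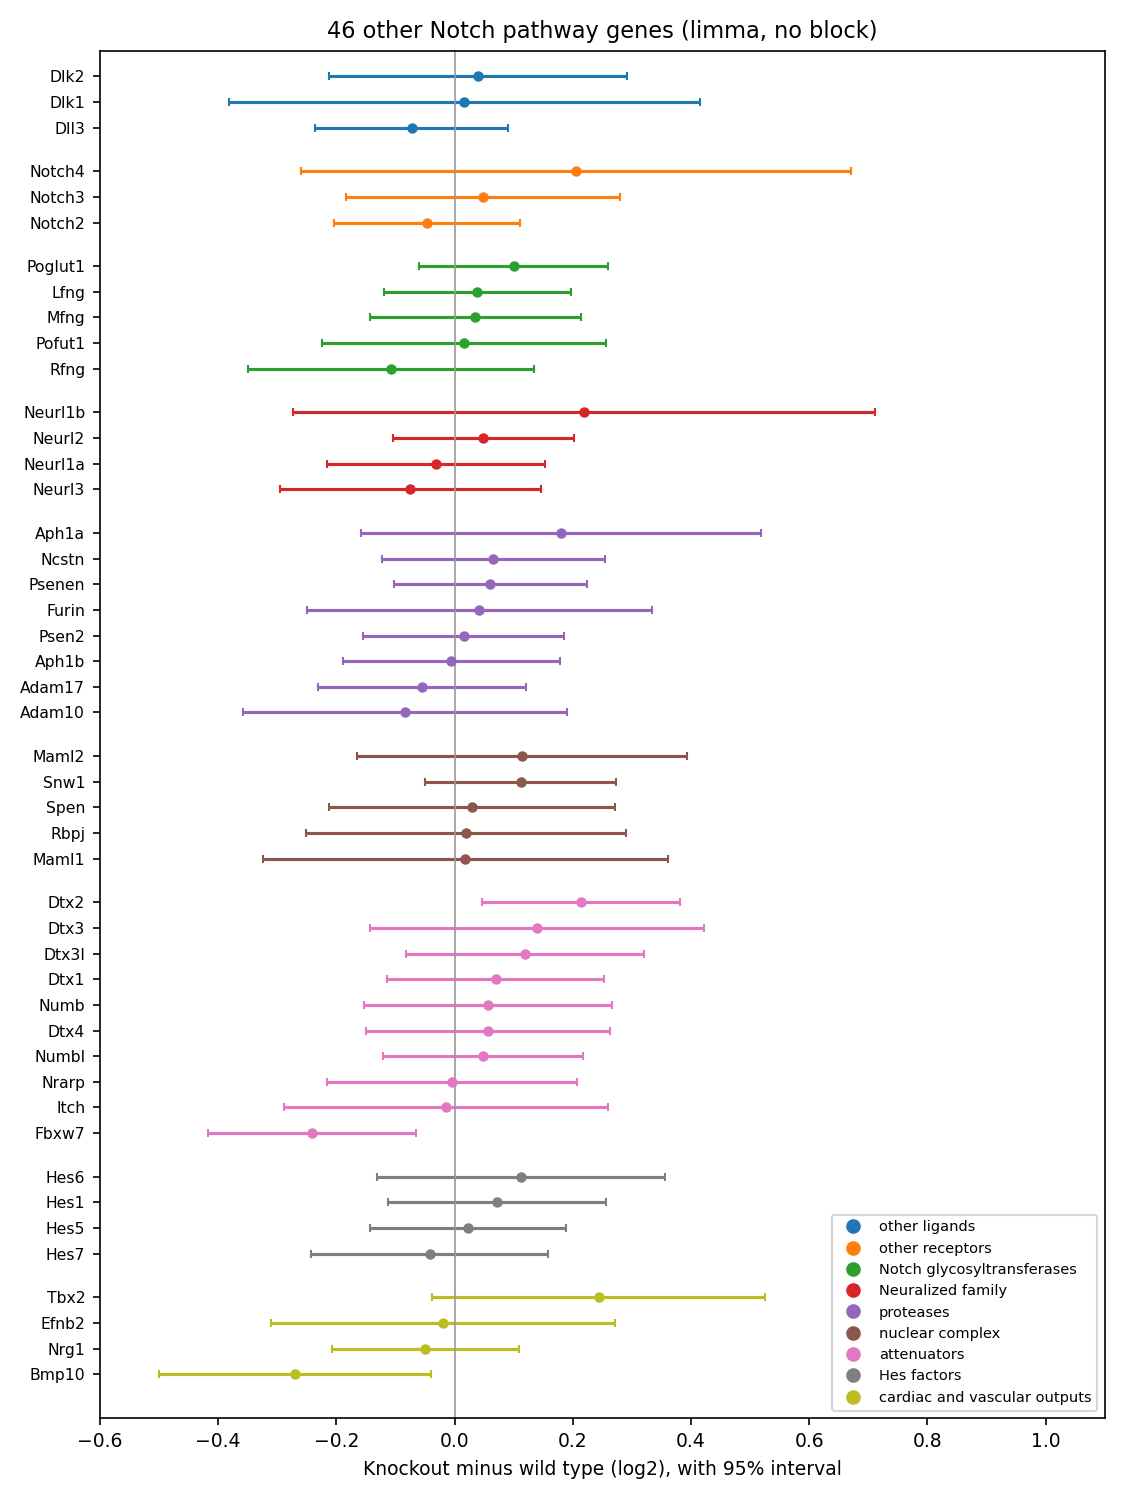
Knockout minus wild-type difference (log2, horizontal axis) with its 95% interval for the 46 other Notch pathway genes, coloured by role and sorted within each role. The intervals of Fbxw7, Dtx2 and Bmp10 do not cover 0 before adjustment, and none of the 46 passed an adjusted p of 0.05.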

How the data were processed

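Heart RNA of 3 knockout and 3 wild-type mice was hybridised to Affymetrix arrays, per the labels' protocols and the series' design text. The deposited values are on a log2 scale, and the authors computed them by RMA with the Bioconductor package affy, per the series' design text. The submitters' processing notes also name GCOS 1.4. The sources used here do not give the version of affy. RMA corrects background, normalizes quantiles and summarises probes. It compresses differences at low signal and removes changes shared by most genes.

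The 64 control probe sets were left out. Names came from the platform annotation, with symbols updated by identifier through RefSeq (GRCm38.p6). Of 45037 probe sets, 34945 named 1 gene, 932 several and 9160 none. All 19 member probe sets name 1 gene. The R package limma 3.58.1 (lmFit and eBayes, under R 4.3.3) gave two-sided tests, with Benjamini-Hochberg adjustment at 0.05 over all 45037 probe sets for members and over 18193 genes (brightest probe set each) for other pathway genes. In simulated data on 45037 probe sets, without a block and with independent arrays, 50 probe sets were changed at each of 1.5-, 2-, 3- and 4-fold. Of these, 82% of 1.5-fold and 100% of 2-fold changes were recovered, with 12 false calls. These shares may not hold for the deposited data, where 3 probe sets passed and the arrays of replicate 1 deviated together. There, Hey2 with a ratio of 1.55 and Fbxw7 1424986_s_at with a 1.53-fold difference did not pass.

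The labels number replicates 1 to 3 in each group. Deviations from the group means correlated across genes at 0.54, 0.18 and 0.13 between same-numbered arrays, all above 0.1, so a block was fitted as an alternative. The crossed pairs of replicates 2 and 3 correlated more, at 0.30 and 0.35. These values thus bear out the shared number for replicate 1 only, and the numbered pairs of replicates 2 and 3 may be arbitrary. Nothing states that a number marks a litter or day. Members, gene lists and tests were chosen with earlier results of these data known. Named were all members, in each role group of other pathway genes the 2 with the largest absolute difference, always Notch2, Notch3, Notch4, Rbpj and Hes1, and the 5 genes nearest in pattern to Mib1, Notch1 and Hey2, leaving out clone names. Genes carried by several probe sets are described by the brightest, and further probe sets are given where they bear on a named gene. Alternatives covered the block, single replicates left out, filters, scaling, variance models, array weights, Xist as a covariate and the mean over probe sets.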

Additional observations from a re-analysis of the deposited data

How the results depend on the processing

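Among all probe sets, no member passed under any of the alternatives run. With 1 probe set per gene, Hey2 passed with the replicate block and without replicate 1, where 11 of 18193 genes passed. It also passed with array weights, where 416 did. With the brightest probe set of each gene, the differences of Mib1, Mib2, Dll4 and Hey2 kept their sign in all alternatives that gave them a value. Dimmer ones did not all do so, and Dll4 1421827_at was 0.014 without wild-type replicate 3. The count of all probe sets that passed, 3 without a block, was 20 with the replicate block and 55 with the block and without replicate 2. It was 24 with array weights, 24 with replicate 1 as a batch, 6 with a trended robust variance, and 0 with the upper 60% of probe sets by mean, without ambiguous probe sets or with Xist as a covariate. Leaving out single hearts gave 1 to 15. Of the other Notch pathway genes 2 passed with array weights, Bmp10 and Fbxw7, where 416 of all genes passed. The signs of several members turned, also those of Jag1 and Jag2, whose differences without a block were -0.13 and -0.10. With the replicate block, Dll1 was 0.037, Hey1 0.058 and Notch1 0.013 without replicate 3, Heyl -0.021 without replicate 2, and Jag1 0.060 without replicate 1. With replicates 2 and 3 alone, chosen after seeing the data, Jag1 was also 0.060. Median centring gave 0.010 for Dll1 and 0.0058 for Hey1. Xist as a covariate gave 0.018 for Dll1, 0.0037 for Hey1, 0.19 for Jag1, 0.045 for Jag2 and 0.15 for Notch1. It also gave -0.15 for Mib1 and 0.98 for Hey2, without a change of sign. Xist was high in all wild-type hearts and, among knockout hearts, in replicate 2 only. With Xist as a covariate the difference therefore rests mainly on knockout replicate 2, and it cannot serve as an adjustment for sex. Array weights gave -0.17 for Mib1 and 0.94 for Hey2. The mean over probe sets gave -0.0096 for Heyl, 0.031 for Jag2 and 0.022 for Notch1. Leaving out single hearts gave -0.037 to 0.028 for Dll1, -0.062 to 0.040 for Hey1, -0.058 to 0.13 for Heyl, -0.30 to 0.079 for Jag1 and -0.16 to 0.047 for Notch1. The cause of these moves was not tested. With 1 probe set per gene, Hey2 is not among the upper 60% of genes by mean, and Mib2 is read only by an ambiguous probe set, so these lack a value under that alternative. Of the other Notch pathway genes 31 of 46 had a higher mean in knockout. Over the alternatives that tested all 46 this was 24, without wild-type replicate 1, to 35, with median centring. Of all genes, 49.2% and 60% were higher in knockout under these alternatives. Signal limits dim probe sets such as 1433853_at.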
